A study of Mus musculus with 4 samples.

Results

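The genes described here are 38 genes that code for the fibrous and cell-associated matrix of dermal fibroblasts, or that mark these cells. They were measured in RNA sequencing of newborn mouse epidermal keratinocytes, and were taken from the deposited table by gene symbol, as 38 of the 45803 symbols it holds. They were sorted into 4 classes: 5 fibrillar collagen genes, 3 proteoglycan genes, 11 elastic fibre genes and 19 others. The first group, cKO, had the genotype K14Cre,Mettl14F/F, in which Cre recombinase under the keratin 14 promoter acts on both floxed alleles of Mettl14, and the control group, K14Cre,Mettl14F/+, carried the same Cre and 1 floxed allele. Every library came from skin epidermis at postnatal day 0, with 2 cKO and 2 control libraries, numbered 1 and 2 in each group. Whether each library is a different animal is not stated, so a p-value here measures only how far these libraries spread, which may be technical.

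The dermis lies beneath the epidermis and is filled by matrix that fibroblasts secrete. Collagens I, III and V form its cross-striated fibrils, small leucine-rich proteoglycans coat those fibrils and set their width, and elastin deposited on fibrillin microfibrils lets the skin recoil. Keratin 14 is made by basal keratinocytes and not by dermal fibroblasts, so the Cre driver acts in the epithelium. Signal from these genes in an epidermal preparation can come from dermal cells carried along in the separation, from other non-epithelial cells of the epidermis, or from keratinocytes. In these bulk libraries, fewer cells of a type and less RNA per cell cannot be told apart.

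Values are FPKM, that is, reads scaled to transcript length and to the size of the library, summed over the transcripts of a gene, so levels can be compared between genes. The implied depth was 16880000 and 25640000 reads or fragments in cKO libraries 1 and 2, and 17370000 and 23370000 in control libraries 1 and 2. Mettl14, the targeted gene, had 5.89 and 3.79 FPKM in cKO libraries 1 and 2 against 7.00 and 6.40 in control libraries 1 and 2. The keratin gene Krt14 had 1435 and 2195 FPKM in cKO libraries and 2176 and 2550 in control libraries, whereas the 38 matrix genes together came to 638 and 714 FPKM in cKO and 927 and 882 in control. A set of 12 keratinocyte markers summed to between 16880 and 25760 FPKM per library, although its member Krt1 was listed at 0 in every library. Libraries with the same replicate number were the most alike: across genes, log2 values correlated at 0.977 between cKO 1 and control 1 and at 0.976 between cKO 2 and control 2. Libraries of the same genotype correlated at 0.956 in cKO and 0.966 in control, and those that share neither at 0.962 for cKO 1 with control 2 and 0.935 for cKO 2 with control 1. Comparisons are therefore given within each number as well as between groups.

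Sequences are shown first for members whose level or splicing is described below. Upstream windows of 250 bases before the RefSeq transcription start (GRCm38.p6) could be matched for 22 of the 38 genes. TATAAA, the core of the TATA box, was searched on both strands and occurred in 5 of these 22 windows (22.7%) and in 12.4% of 32851 windows of the same length. The windows of 3 of the most abundant members that hold it are printed 5′ to 3′ with TATAAA in capitals, for Postn (chr3:54360857-54361106, plus strand), Tnc (chr4:64047016-64047265, minus strand) and Col3a1 (chr1:45311288-45311537, plus strand).
Postn: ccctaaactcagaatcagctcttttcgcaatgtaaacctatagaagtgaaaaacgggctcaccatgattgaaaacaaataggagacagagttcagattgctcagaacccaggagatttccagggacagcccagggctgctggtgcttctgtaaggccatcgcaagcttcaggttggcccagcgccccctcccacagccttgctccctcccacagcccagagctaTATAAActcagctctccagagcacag
Tnc: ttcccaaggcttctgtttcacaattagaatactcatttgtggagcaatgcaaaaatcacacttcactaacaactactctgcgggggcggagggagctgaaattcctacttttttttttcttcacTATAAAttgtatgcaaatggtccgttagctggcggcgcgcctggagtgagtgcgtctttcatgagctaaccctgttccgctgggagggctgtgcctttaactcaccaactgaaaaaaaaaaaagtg
Col3a1: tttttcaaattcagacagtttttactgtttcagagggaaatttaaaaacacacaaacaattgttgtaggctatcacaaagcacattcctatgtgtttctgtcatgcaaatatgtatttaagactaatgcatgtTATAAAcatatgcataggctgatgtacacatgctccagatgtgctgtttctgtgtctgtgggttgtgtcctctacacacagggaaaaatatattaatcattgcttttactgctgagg
The first base of TATAAA lies 26 bases before the start in Postn, 126 in Tnc and 117 in Col3a1. TATAAA also occurred in the windows of Vim, the most abundant member, and of Twist1, which are not printed. The RefSeq start used for Vim lay 359 bases from its GENCODE start. The E-box CANNTG, a class of site bound by Twist and other basic helix-loop-helix factors, was found in 11 of the 22 windows (50%) against 66.2% of all windows, the GC box GGGCGG in 14 (63.6%) against 32.7%, and CCAAT in 5 (22.7%) against 33.9%. These counts describe the letters of the windows only.

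Alternative exons that tell transcripts of periostin and fibronectin apart are shown because their use is described later. They are exon 17 of transcript Postn-203 (chr3:54380412-54380492, plus strand), exon 20 of Postn-201 (chr3:54385671-54385754, plus strand) and exon 32 of Fn1-214 (chr1:71603660-71603929, minus strand), all on GRCm38, from GENCODE M21. The fibronectin exon is the one known as extra domain A. Capitals mark GGACT, a frequent form of the sequence at which the METTL3-METTL14 complex methylates adenosine, and no methylation was measured in these libraries.
Postn exon 17: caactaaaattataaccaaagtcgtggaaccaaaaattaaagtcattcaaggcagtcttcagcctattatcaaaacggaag
Postn exon 20: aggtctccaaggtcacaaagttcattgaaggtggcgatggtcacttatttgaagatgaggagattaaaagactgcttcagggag
Fn1 exon 32: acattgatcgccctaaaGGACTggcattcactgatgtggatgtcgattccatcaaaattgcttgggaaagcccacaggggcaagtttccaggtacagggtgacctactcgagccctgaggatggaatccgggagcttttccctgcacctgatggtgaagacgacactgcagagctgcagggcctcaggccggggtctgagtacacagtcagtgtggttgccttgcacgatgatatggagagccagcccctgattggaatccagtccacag
In the most abundant transcripts of the 38 genes, GGACT occurred at a median of 0.975 per kilobase, against 1.06 in 11746 protein-coding genes tested.

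Within the whole set, a few abundant genes were lower in cKO, and most others moved differently in libraries 1 and 2. Vim, Postn and Dcn, which encode vimentin, periostin and decorin, lay below both control libraries in both cKO libraries. Collagen I, III and VI genes, fibulin 2, biglycan and microfibril genes had overlapping groups or differed little. Of 38 genes, 31 reached 1 FPKM in at least 2 libraries and were tested, and 0 had an adjusted p under 0.05 by limma with Benjamini-Hochberg adjustment over 13817 genes, where 0% of genes were called. An unadjusted p under 0.05 was reached by 2 of the 31, Dcn and Col12a1, against 4.96% of all genes tested. The adjusted p of the 31 genes lay at 0.959 or above. This fit, like every limma value below, held genotype only and left out the replicate number. Calls differed with the number as a block, a pairing the labels do not state, and are given in the last section.

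**Figure D1:**
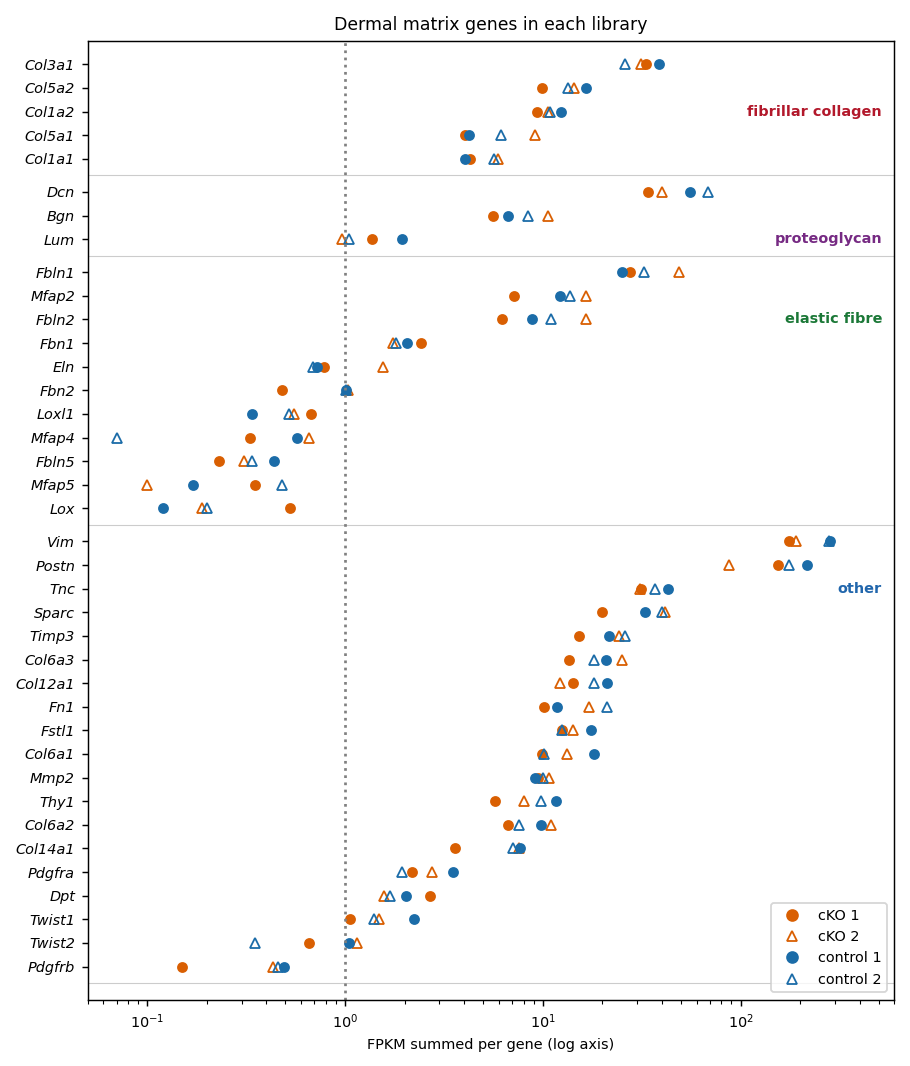
FPKM of each of the 38 genes in each library, on a log axis, sorted by class and mean level; orange marks cKO, blue control, filled circles number 1 and open triangles number 2. Vim, Postn, Dcn, Tnc, Col12a1 and Thy1 have both orange points to the left of both blue points, and the dotted line marks 1 FPKM.

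Both cKO libraries lay below both control libraries for 7 of the 31 tested genes (22.6%), against 16.6% of all genes tested, and for 0 of 31 above them, against 16.2%. The 7 were Vim, Postn, Dcn, Col12a1, Tnc, Thy1 and Col1a2. Within replicate numbers, cKO was lower in both for 10 of 31 (32.3%), against a background of 37.6%, so that count is near what all genes show. It was higher in both for 3 of 31 (9.68%), namely Col1a1, Fbln1 and Mmp2, against 31.8%. For 16 of 31 (51.6%) cKO was lower than control within number 1 and higher within number 2, a pattern held by 15.5% of all genes tested. The opposite split was seen in 2 (6.45%), Fbn1 and Dpt, against 14.6% of all genes tested. With 1 library on each side of a within-number difference, the contrast between numbers was not tested. The median log2 difference, cKO minus control on the log2(FPKM + 1) scale, was -0.14 over all 38 genes, with -0.41 within number 1 and 0.05 within number 2, beside -0.03, -0.03 and -0.02 over all genes tested. The median over the 38 genes depended on single libraries, and was 0.024 without cKO replicate 1, -0.331 without cKO replicate 2, -0.091 without control replicate 1 and -0.175 without control replicate 2.

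**Figure D2:**
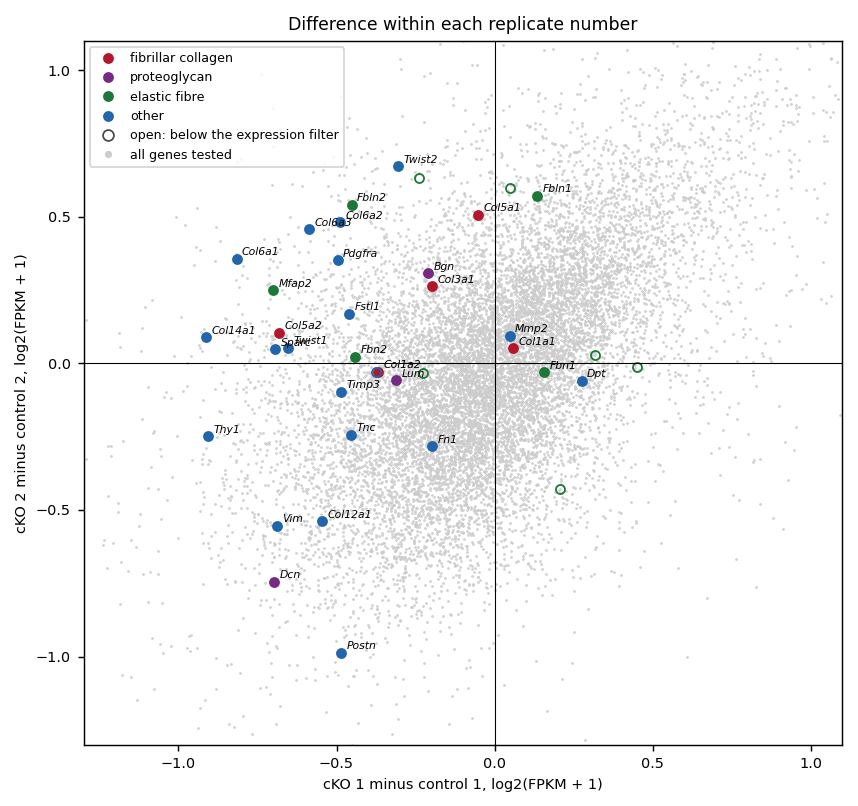
Log2 difference, cKO minus control, within number 1 (horizontal axis) and within number 2 (vertical axis); grey points are all genes tested within the plotted range, coloured points the matrix genes by class, and open circles the 7 genes below the expression filter. Dcn, Vim, Col12a1 and Postn lie in the lower left, and 16 tested genes, among them all 3 collagen VI genes, lie in the upper left.

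The fibrillar collagen genes showed no shared direction. Col1a1 and Col1a2 encode the 2 kinds of chain of collagen I, Col3a1 the chain of collagen III, abundant in fetal and newborn skin, and Col5a1 and Col5a2 chains of collagen V, which starts fibrils. Col3a1 was the highest, at 33.5 and 31.4 FPKM in cKO libraries 1 and 2 and 38.5 and 26.0 in control libraries 1 and 2, so the control libraries lay on both sides of the cKO ones. Col1a2 had 9.38 and 10.6 FPKM in cKO against 12.4 and 10.9 in control. The groups of Col1a2 did not overlap, but cKO 2 was at 0.978 of control 2. Col1a1 had 4.27 and 5.94 FPKM in cKO against 4.06 and 5.70 in control, and within each number the 2 libraries were nearly equal, with log2 differences of 0.06 and 0.05. Its groups overlapped, and in both groups the library numbered 2 was the higher.

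Collagen V chains differed between the numbers. Col5a1 had 4.03 and 9.17 FPKM in cKO and 4.22 and 6.16 in control. For Col5a2 the values were 9.88 and 14.5 FPKM in cKO against 16.5 and 13.4 in control. Within number 1 cKO was below control for both chains, and within number 2 above. Summed over the class, fibrillar collagens came to 61.0 and 71.6 FPKM in cKO and 75.7 and 62.1 in control, a ratio of 0.806 within number 1 and 1.15 within number 2. The log2 differences of the 5 genes had a median of 0.03 and lay between -0.29 ± 0.26 (SE) for Col5a2 and 0.23 ± 0.39 for Col5a1 (limma, adjusted p of at least 0.959, n = 2 libraries each). The Col5a2 difference was -0.035 without cKO replicate 1 and -0.543 without cKO replicate 2. Col3a1 alone made up 54.8% and 43.8% of the class sum in cKO and 50.9% and 41.8% in control. The level of Col1a1 over that of Col1a2 was 0.455 and 0.558 in cKO and 0.327 and 0.524 in control, whereas collagen I is built with more chains from Col1a1 than from Col1a2.

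Among the proteoglycans, decorin RNA separated the groups and the other 2 overlapped. Dcn encodes decorin, which binds collagen fibrils and limits their diameter. Dcn had 34.0 and 40.3 FPKM in cKO libraries 1 and 2 against 55.7 and 68.2 in control libraries 1 and 2. Every cKO value was below every control value, and cKO stood at 0.61 of control within number 1 and 0.591 within number 2. The means were 37.1 ± 4.49 FPKM in cKO and 62.0 ± 8.87 in control (SD, n = 2 each), a log2 difference of -0.72 ± 0.23 (SE, limma adjusted p = 0.959). Leaving out any 1 library left this difference between -0.865 and -0.577. Behind the values stand about 1008 and 1817 reads in cKO and 1701 and 2803 in control.

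The decorin signal was divided over 2 transcripts of equal length. The first was listed at 23.5 and 27.9 FPKM in cKO against 42.2 and 49.8 in control. The other transcript was at 10.5 and 12.4 FPKM in cKO against 13.5 and 18.4 in control. Both forms were lower in both cKO libraries, though the split of reads between such similar transcripts is uncertain. Biglycan, encoded by Bgn on the X chromosome, is the closest relative of decorin in the list. It had 5.62 and 10.6 FPKM in cKO against 6.66 and 8.38 in control, with the cKO libraries outside the control ones on either side. Lum, which encodes the fibril-binding lumican, had 1.37 and 0.97 FPKM in cKO against 1.94 and 1.05 in control, from about 57 to 82 reads per library. Since Dcn held 82.9% and 77.7% of the class in cKO and 86.6% and 87.9% in control, the class sum followed it, at 41.0 and 51.9 FPKM in cKO against 64.3 and 77.7 in control.

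**Figure D3:**
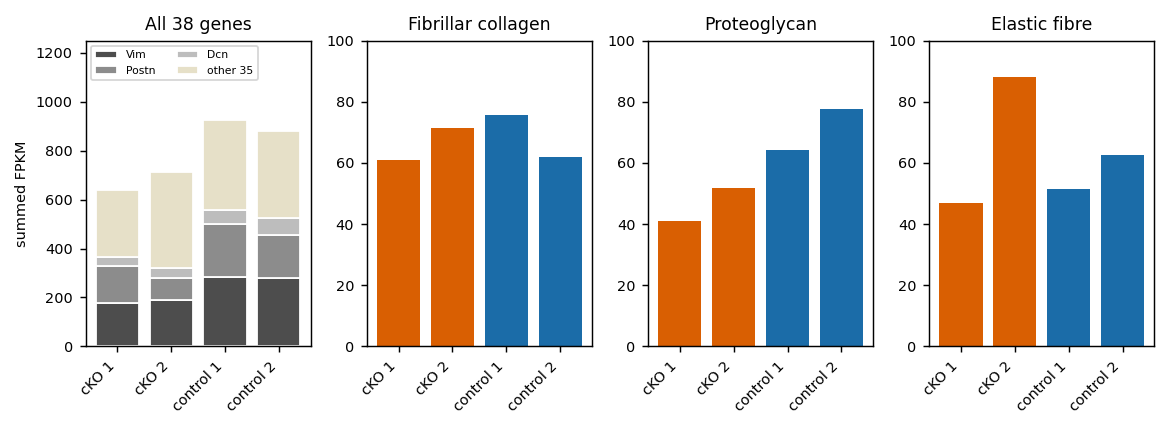
Summed FPKM per library, bars from 0; the left panel stacks Vim, Postn, Dcn and the other 35 genes, and the other panels give 3 classes. The proteoglycan bars are lower in cKO (41.0 and 51.9) than in control (64.3 and 77.7), while fibrillar collagen and elastic fibre bars overlap between groups.

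Elastic fibre genes were low except for fibulins 1 and 2 and Mfap2, and none of the class lay lower in both cKO libraries among those tested. Fbln1 encodes fibulin 1, a glycoprotein of elastic fibres and basement membranes. Fbln1 had 27.6 and 48.8 FPKM in cKO libraries 1 and 2 against 25.1 and 32.5 in control libraries 1 and 2. It was higher in cKO within both numbers, by 0.14 and 0.57 on the log2 scale, yet cKO 1 lay below control 2, so the groups overlapped. Its log2 difference was 0.35 ± 0.32 (SE, limma adjusted p = 0.959) and turned to -0.047 when cKO replicate 2 was left out. The shorter coding transcript carried 81.1% and 76.2% of the FPKM of the 2 coding transcripts in cKO and 75.6% and 74.9% in control.

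Fbln2, which encodes fibulin 2, had 6.2 and 16.5 FPKM in cKO against 8.85 and 11.0 in control. Mfap2 encodes a glycoprotein of fibrillin microfibrils, MAGP1, and had 7.17 and 16.6 FPKM in cKO against 12.3 and 13.8 in control. For both genes cKO 1 was the lowest library and cKO 2 the highest. Fbn1, which encodes fibrillin 1, the backbone of the microfibril, had 2.42 and 1.75 FPKM in cKO against 2.07 and 1.81 in control. Fbn2, for fibrillin 2, the form typical of embryonic tissue, had 0.48 and 1.04 FPKM in cKO against 1.01 in each control library. Fbn2 was low in cKO 1 alone, and the groups of Fbn1 overlapped.

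The 6 untested genes of the class stayed between 0.07 and 1.56 FPKM, from about 3 to 149 reads per library. Eln, which encodes elastin itself, had 0.78 and 1.56 FPKM in cKO against 0.72 and 0.69 in control. The coding transcript Eln-201 was at 0.24 and 1.41 FPKM in cKO against 0.70 and 0.65 in control. In cKO 1 most of the gene's value came instead from Eln-203, annotated as a target of nonsense-mediated decay, at 0.43 FPKM. Lox and Loxl1 encode lysyl oxidases, the enzymes that crosslink elastin and collagen. Loxl1 had 0.67 and 0.55 FPKM in cKO against 0.34 and 0.52 in control, and Lox 0.53 and 0.19 in cKO against 0.12 and 0.20 in control. Fbln5, Mfap4 and Mfap5 were at or below 0.66 FPKM in every library. At this depth a difference in these 6 genes could not be judged. The class sum was 46.8 and 88.1 FPKM in cKO and 51.6 and 62.5 in control, a ratio of 0.906 within number 1 and 1.41 within number 2.

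Vimentin and periostin were the most abundant of the 38 genes and were lower in both cKO libraries. Vim encodes the intermediate filament of mesenchymal cells, which melanocytes and leukocytes also make. Vim had 176 and 191 FPKM in cKO libraries 1 and 2 against 284 and 281 in control libraries 1 and 2. The control libraries were nearly equal, and both cKO libraries stood well below them. The means were 183 ± 10.8 FPKM in cKO and 283 ± 2.07 in control (SD, n = 2 each), a log2 difference of -0.62 ± 0.26 (SE, limma adjusted p = 0.959). Without any 1 library the difference lay between -0.682 and -0.562. The main coding transcript, Vim-201, showed the same order, at 164 and 166 FPKM in cKO against 255 and 253 in control.

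Postn encodes periostin, a secreted matricellular protein that helps collagen crosslinking and adhesion. Postn had 154 and 87.8 FPKM in cKO against 216 and 175 in control. Both cKO values were below both control values, with cKO at 0.713 of control within number 1 and 0.501 within number 2. The log2 difference of Postn was -0.74 ± 0.34 (SE, limma adjusted p = 0.959), and its size depended on single libraries, from -1.139 without cKO replicate 1 to -0.334 without cKO replicate 2. The gene was also higher in library 1 than in library 2 of each group, by 0.81 in cKO and 0.30 in control on the log2 scale. Vim made up 27.6% and 26.8% of the sum of the 38 genes in cKO and 30.7% and 31.9% in control, and Postn 24.2% and 12.3% in cKO and 23.3% and 19.9% in control. Without Vim and Postn the other 36 genes summed to 308 and 435 FPKM in cKO and 427 and 426 in control, a ratio of 0.722 within number 1 and 1.02 within number 2. With Dcn left out as well, the sums were 274 and 395 FPKM in cKO and 371 and 357 in control. These 3 genes were singled out after their values were seen.

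Most of the Postn signal came from 3 coding forms, and a minor coding form was nearly absent in cKO. Postn-204, the main form, was listed at 99.1 and 59.2 FPKM in cKO against 139 and 112 in control. The minor form, which holds both exons printed above, was listed at 0 and 0.53 FPKM in cKO (about 0 and 36 reads) against 4.25 and 2.92 in control (about 197 and 182 reads). Both cKO values of that form lay below both control values, though the split of reads among such similar transcripts is uncertain. Exon 17 was included in 20.2% and 17.0% of the FPKM of long coding transcripts in cKO and in 20.6% and 23.0% in control. Exon 20 was included in 7.41% and 12.2% in cKO and 9.88% and 9.90% in control. For exon 17 both cKO shares lay just below both control shares, and for exon 20 the cKO shares lay on either side of the control ones. Transcripts with a retained intron took 9.68% and 3.67% of Postn FPKM in cKO and 9.61% and 4.54% in control, a share that went with the replicate number in both groups.

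In these 4 libraries the share of fibronectin transcripts with extra domain A did not overlap between the groups, while the gene totals did. Fn1 encodes fibronectin, the adhesive glycoprotein that cells bind through integrins, and it had 10.1 and 17.2 FPKM in cKO against 11.8 and 21.2 in control, with the libraries numbered 2 higher in both groups. Extra domain A, which is included in fibronectin of embryonic and healing tissue and left out of the plasma form made by liver, is coded by the exon 32 printed above. Coding transcripts with this exon summed to 4.43 and 9.80 FPKM in cKO and to 4.70 and 7.39 in control. Those that skip it summed to 2.69 and 5.34 FPKM in cKO and 4.44 and 8.72 in control. The share with the exon was 62.2% and 64.7% in cKO against 51.4% and 45.9% in control, so both cKO libraries lay above both control libraries. These shares were not entered in a model, and an exact two-sided permutation test of 2 against 2 libraries gives no p below 0.33. One transcript, Fn1-211, was listed at 3.09 FPKM in cKO 2 and at no more than 0.03 in the other libraries, so the division of reads among the 7 long coding transcripts was unstable.

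**Figure D4:**
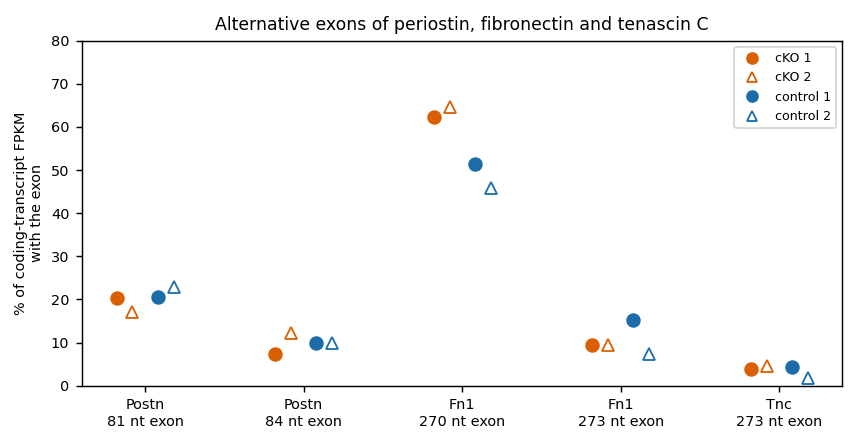
Percentage of the FPKM of long coding transcripts that comes from transcripts with each of 5 alternative exons, per library; orange marks cKO, blue control, filled circles number 1 and open triangles number 2. The Fn1 exon of 270 nt is at 62.2% and 64.7% in cKO and at 51.4% and 45.9% in control, and the other 4 exons overlap or differ by a few percent.

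Of the 5 alternative exons examined in Postn, Fn1 and Tnc, the other 2 were a second fibronectin exon of 273 nt, known as extra domain B, at 9.41% and 9.51% in cKO and 15.2% and 7.39% in control, and a tenascin C exon of the same length at 3.96% and 4.46% in cKO and 4.32% and 1.79% in control. Their groups overlapped. Tnc encodes tenascin C, a matricellular protein of developing and healing mesenchyme. Tnc had 31.2 and 31.0 FPKM in cKO against 43.1 and 36.9 in control, a log2 difference of -0.35 ± 0.20 (SE, limma adjusted p = 0.959). Both cKO libraries were below both control libraries, and the 2 cKO values were nearly identical.

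Collagen XII and collagen XIV belong to the collagens that sit on the surface of fibrils. Col12a1 had 14.2 and 12.2 FPKM in cKO against 21.2 and 18.2 in control. The groups did not overlap, and cKO was at 0.671 of control within both numbers. The log2 difference of Col12a1 was -0.54 ± 0.21 (SE, limma adjusted p = 0.959). Col14a1 had 3.62 and 7.59 FPKM in cKO against 7.70 and 7.08 in control, so it was low in cKO 1 alone.

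Collagen VI is built from 3 chains, encoded by Col6a1, Col6a2 and Col6a3, and forms a filament network around cells. Col6a1 had 9.90 and 13.2 FPKM in cKO against 18.2 and 10.1 in control. Col6a2 had 6.68 and 11.0 FPKM in cKO against 9.78 and 7.62 in control. The values of Col6a3 were 13.6 and 25.3 FPKM in cKO against 21 and 18.1 in control. All 3 chains followed the same order of libraries within each number, with cKO lower in number 1 and higher in number 2. Their sum was 30.2 and 49.5 FPKM in cKO against 48.9 and 35.9 in control, a ratio of 0.617 within number 1 and 1.38 within number 2. Pooled over numbers their log2 differences were -0.23, -0.004 and -0.06, with SE between 0.29 and 0.32.

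Secreted regulators of matrix varied between libraries, with overlapping groups. Sparc, which encodes the collagen-binding protein osteonectin, had 19.9 and 41.4 FPKM in cKO against 32.8 and 40.0 in control. Timp3, which encodes a matrix-bound inhibitor of metalloproteinases, had 15.2 and 24.2 FPKM in cKO against 21.8 and 26.0 in control. For both genes cKO 1 was the lowest library and stood well below the other 3 in Sparc. Fstl1, for a secreted follistatin-like glycoprotein, had 12.5 and 14.2 FPKM in cKO against 17.5 and 12.5 in control. Mmp2, which encodes gelatinase A, had 9.51 and 10.8 FPKM in cKO against 9.17 and 10.0 in control, a log2 difference of 0.07 ± 0.20 (SE). Dpt, for dermatopontin, which binds decorin, had 2.68 and 1.58 FPKM in cKO against 2.04 and 1.69 in control.

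Cell surface and regulatory markers of fibroblasts were low. Pdgfra, which encodes the PDGF receptor alpha used to mark fibroblasts, had 2.19 and 2.75 FPKM in cKO against 3.50 and 1.94 in control. Pdgfrb, for the receptor beta of pericytes and fibroblasts, lay between 0.15 and 0.49 FPKM in the 4 libraries and was not tested. Twist1 and Twist2 encode transcription factors of mesenchyme. Twist1 had 1.06 and 1.49 FPKM in cKO against 2.24 and 1.40 in control, and Twist2 had 0.66 and 1.15 in cKO against 1.05 and 0.35 in control, from about 11 to 63 reads per library. The groups overlapped for Pdgfra, Twist1 and Twist2.

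Thy1 was lower in both cKO libraries. It encodes a surface glycoprotein of fibroblasts that in mouse epidermis is also carried by the resident gamma-delta T cells. Thy1 had 5.76 and 8.07 FPKM in cKO against 11.7 and 9.78 in control, a log2 difference of -0.58 ± 0.24 (SE, limma adjusted p = 0.959). Within number 1 cKO was at 0.493 of control and within number 2 at 0.825. The size of the Thy1 difference depended on single libraries, from -0.366 without cKO replicate 1 to -0.79 without cKO replicate 2.

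Marker lists for other cells that an epidermal preparation can hold were measured beside these values. All 8 T cell markers were lower in cKO within both numbers, a direction held by 37.6% of all genes tested, and the summed level of the list was 55.9 and 50.5 FPKM in cKO against 112 and 104 in control. Its Cd3g, a chain of the T cell receptor complex, had 18.3 and 21 FPKM in cKO against 39.0 and 37.8 in control. Of 13 Langerhans cell and macrophage markers, 11 were lower within both numbers, and they summed to 428 and 688 FPKM in cKO against 667 and 853 in control. Of 9 melanocyte markers, 8 were lower within both numbers, with sums of 434 and 443 FPKM in cKO and 563 and 483 in control. No marker passed the adjusted test, and 6 of the 8 T cell markers had an unadjusted limma p under 0.05, against 4.96% of all genes tested. Among the markers of the other cell types in this paragraph, Kit alone did so, a gene listed as both a melanocyte and a mast cell marker. The T cell and melanocyte sums were lower in both cKO libraries than in both control libraries, as Vim and Thy1 were. The mural, Schwann cell and mast cell sums given below had the same order. The Langerhans cell and macrophage sum was lower within both numbers, but cKO 2 (688 FPKM) lay above control 1 (667), so its groups overlapped. The part of any of these cells in the Vim and Thy1 values was not tested. Endothelial markers summed to 8.04 and 13.6 FPKM in cKO against 9.75 and 6.15 in control, and muscle markers to 6.22 and 4.05 in cKO against 5.79 and 4.68 in control. Mural markers summed to 32.4 and 33.7 FPKM in cKO against 34.0 and 34.6 in control. Most of the mural sum was Notch3, at 27.29 and 24.57 FPKM in cKO against 25.10 and 24.55 in control. Of 4 tested mural markers, 2 were lower in both cKO libraries, 1 was higher within both numbers and 1 was mixed. The 2 lower ones were Acta2 (0.73 and 1.22 FPKM in cKO, 3.04 and 1.70 in control) and Tagln (1.42 and 1.30 in cKO, 2.03 and 2.29 in control). Adipocyte markers summed to 10.6 and 18.7 FPKM in cKO compared with 12.5 and 20.3 in control. Schwann cell markers summed to 18.8 and 18.9 FPKM in cKO against 22.1 and 23.1 in control. Mast cell markers, of which Fcer1a was listed at 0 in every library, summed to 17.9 and 11.4 FPKM in cKO against 20.1 and 19.5 in control. Most of that sum was Kit, at 11.92 and 9.98 FPKM in cKO against 18.03 and 16.02 in control. Of the 7 mast cell markers, Kit alone was lower within both numbers, so the lower sum was not shared by the other markers. Kit was also counted in the melanocyte sum.

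**Figure D5:**
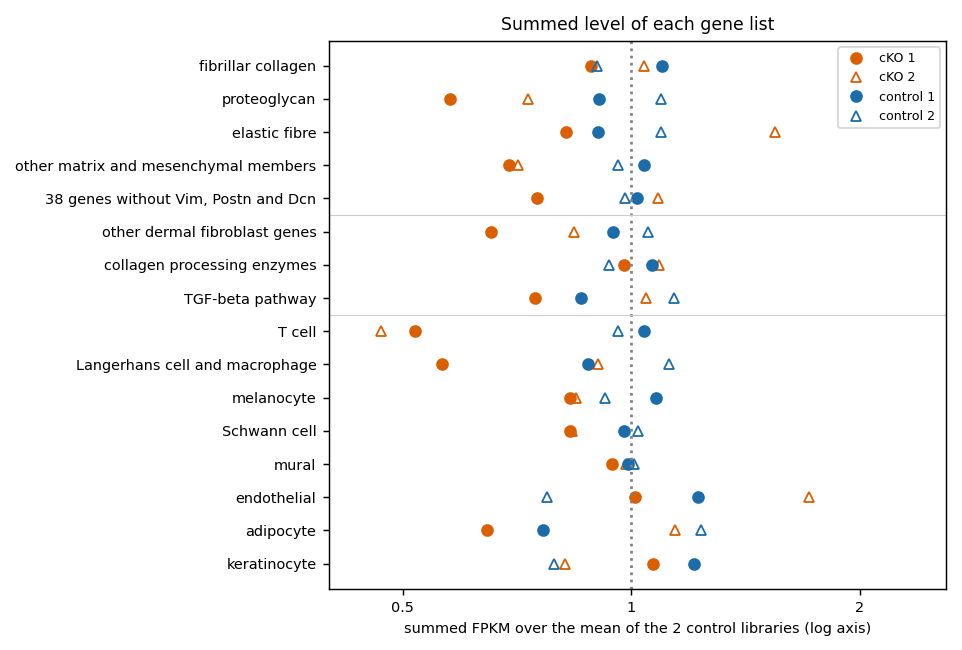
Summed FPKM of each gene list in each library divided by the mean of the 2 control libraries, on a log axis; orange marks cKO, blue control, filled circles number 1 and open triangles number 2. The T cell list lies at 0.519 and 0.468 in cKO, the proteoglycan class at 0.577 and 0.731, and the 35 genes without Vim, Postn and Dcn at 0.752 and 1.08.

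A second list held 30 other dermal fibroblast genes, such as versican, relatives of lumican and dermal transcription factors, of which Tcf21 was listed at 0 in every library. Of the 30 genes, 15 passed the expression filter, and of these 7 were lower within both numbers (46.7%) and 2 higher (13.3%), beside 37.6% and 31.8% of all genes tested. None of the 15 passed the adjusted limma test, and 1 (6.67%), S100a4, had an unadjusted p under 0.05, beside 4.96% of all genes. All 30 genes summed to 155 and 199 FPKM in cKO against 224 and 249.4 in control. The sum was led by S100a4, a calcium-binding protein also made by leukocytes, with 65.5 and 97.2 FPKM in cKO against 125 and 149 in control. The group difference in S100a4 was about as large as that of the sum, so the rest of the list differed little as a sum. The peptidase gene Dpp4, found on some dermal fibroblasts and on other cells, had 34.6 and 23.6 FPKM in cKO against 32.0 and 20.3 in control. Igfbp5, an insulin-like growth factor binding protein, had 3.23 and 3.74 FPKM in cKO against 4.67 and 7.20 in control.

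Genes that fold and process collagen are expressed by many cells. Of 19 tested, 5 were lower and 5 higher within both numbers (26.3% each), beside 37.6% and 31.8% of all genes tested, and 0 passed the adjusted limma test or an unadjusted p under 0.05. Another 9 of the 19 (47.4%) were lower within number 1 and higher within number 2. That split was held by 51.6% of the tested matrix genes and 15.5% of all genes tested. P4hb, the shared subunit of prolyl hydroxylase and a general disulfide isomerase, had 286 and 249.1 FPKM in cKO against 312 and 207 in control. Plod1, a lysyl hydroxylase, had 3.71 and 7.4 FPKM in cKO against 6.83 and 11.2 in control, and Fkbp10, a collagen chaperone, had 5.46 and 5.73 in cKO against 4.86 and 2.55 in control. In the TGF-beta pathway, which drives matrix synthesis in fibroblasts, 7 of 16 tested genes were lower within both numbers (43.8%) and 2 higher (12.5%), beside 37.6% and 31.8% of all genes tested, so the share that was lower is near the background. Tgfbr1, the type I receptor, had 16.0 and 11.1 FPKM in cKO against 23.0 and 18.5 in control, and Tgfbi, a TGF-beta-induced matrix protein, had 28.0 and 51.7 in cKO against 40.1 and 63.8 in control. None of these passed the adjusted test (adjusted p = 0.959 for Tgfbr1).

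Gene structure went little with the differences inside the set. The most abundant transcripts of the 38 genes had a median of 16 exons, against 9 in protein-coding genes tested, and a median length of 4024 against 2820 nt. Tested members with over 20 exons had a median log2 difference of -0.20 (16 genes) and those with fewer -0.18 (15 genes), while the 1439 protein-coding genes with over 20 exons stood at -0.15. Across the 31 tested members the difference correlated with exon number at r = 0.103, against -0.246 across 11746 protein-coding genes tested. The differences within number 1 and within number 2 correlated at 0.209 across the members, against 0.536 across all genes tested. Genes share libraries and are not independent, so these correlations are descriptions. Transcripts with a retained intron took 5.44% and 4.42% of the FPKM of the set in cKO and 6.50% and 4.39% in control.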

How the data were processed

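Newborn epidermal keratinocytes were profiled in 4 RNA libraries. The submitters' processing notes list fastp, HISAT2, HTSeq and build GRCm38; for their roles and versions, nothing is stated. The authors deposited 1 value per transcript, with no unit in the header; these were taken as FPKM computed by the authors, scaled to transcript length and library size, since value times GENCODE M21 length (98.04% of 110295 transcripts matched) sums to nearly the same total in each library. FPKM and RPKM cannot be told apart. Control columns, headed WT, were matched by group and number. Low values were whole multiples of 1 read in 94.4% to 95.1% of cases (tolerance 0.2 reads), which gave the depths; read numbers are estimates and cover counting error only. Per the labels' protocols, RNA was selected by poly(A) or by removal of rRNA, without saying which. Whether reads kept their strand is unknown.

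FPKM were summed per symbol. Genes of at least 1 FPKM in at least 2 libraries were tested on log2(FPKM + 1), which understates changes of low genes, with limma 3.58.1 (R 4.3.3, mean-variance trend, genotype only, 2 residual degrees of freedom), adjusted over all 13817. The script was tested on simulated data with less noise than these data. That checked its estimates, and not which changes it can call here. Members and gene lists were chosen with earlier results of these data known. Every member is named. From each other list the rule took the 2 highest genes and the 2 with the largest difference; some of these are printed. Python 3.11.15, pandas 2.3.3 and matplotlib 3.10.9 were used. Alternatives covered scaling, pseudocount, filters, coding transcripts, the replicate number as a block and leaving out each library.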

Additional observations from a re-analysis of the deposited data

How the results depend on the processing

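No member passed the adjusted limma test under scaling, pseudocount, filter, coding-transcript or left-out-library settings. With the replicate number as a block, a pairing the labels do not state, 900 of 13817 genes passed (626 higher, 274 lower). Among them were 4 of the 31 tested members, all lower, Dcn, Postn, Vim and Col12a1 (limma adjusted p = 0.0108, 0.0216, 0.019 and 0.0408). Deviations of same-numbered libraries correlated at 0.722 over genes. Fits without a library, with 1 residual degree of freedom and the lone library assumed to vary like the other group, called 71 genes without cKO replicate 1, 9 without cKO replicate 2, 14 without control replicate 1 and 37 without control replicate 2, and no member. Equal column sums turned Col3a1, Bgn and Fbln2 to -0.023, -0.007 and -0.016, and coding transcripts alone turned Bgn to -0.097. The elastic fibre median, 0.062, became 0.085 with a pseudocount of 0.1, 0.029 with equal column sums, 0.091 with coding transcripts and 0.045 for genes averaging at least 5 FPKM, and ran from 0.037 to 0.119 without a library. The fibrillar collagen median, 0.03 with all libraries, ran from -0.281 to -0.013 without a library and the proteoglycan median from -0.444 to -0.098; the proteoglycan sum ratio, 0.654, became 0.627 with equal column sums. The cause was not tested. The median over all members ran from -0.331 to 0.024 and that of the other class from -0.422 to -0.038. The sign held without any library in 9 of 31 tested members, and turned in 22. Where it held, the log2 difference ran, for Dcn from -0.865 to -0.577, Vim from -0.682 to -0.562, Postn from -1.139 to -0.334, Col12a1 from -0.649 to -0.436, Tnc from -0.457 to -0.238, Thy1 from -0.79 to -0.366, Col1a2 from -0.286 to -0.112, Col5a2 from -0.543 to -0.035 and Twist1 from -0.517 to -0.084. Where it turned, it ran, for Col1a1 from -0.148 to 0.257, Col3a1 from -0.244 to 0.309, Col5a1 from -0.281 to 0.734, Lum from -0.444 to 0.076, Bgn from -0.357 to 0.453 and Fbn1 from -0.095 to 0.22. For the next genes it ran, for Fbn2 from -0.442 to 0.021, Fbln1 from -0.047 to 0.753, Fbln2 from -0.596 to 0.686, Mfap2 from -0.777 to 0.327, Col6a1 from -0.624 to 0.163 and Col6a2 from -0.328 to 0.32. It also ran, for Col6a3 from -0.488 to 0.358, Col14a1 from -0.86 to 0.035, Sparc from -0.833 to 0.187, Dpt from -0.148 to 0.364, Fstl1 from -0.373 to 0.082 and Fn1 from -0.637 to 0.157. Finally it ran, for Mmp2 from -0.011 to 0.152, Timp3 from -0.61 to 0.026, Pdgfra from -0.38 to 0.234 and Twist2 from -0.118 to 0.485. The 7 members below the filter rest on few reads.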
